A study of Mus musculus with 10 samples.

Results

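The question here is whether the difference that IL-3 makes to the amount of a transcript left after transcription has been stopped was already open at 2 h, or widened or closed by 4 h. It was measured on the 8 of 10 arrays whose titles give an IL-3 level. Each of the 2 experiments supplied 1 array for high IL-3 at 2 h, low IL-3 at 2 h, high IL-3 at 4 h and low IL-3 at 4 h. High IL-3 was 1 ng/ml and low IL-3 was 10 pg/ml, and all 8 samples had received actinomycin D at 10 µg/ml after the cells had been washed free of IL-3. In the paper IL-3 was added after the drug, and 2 h and 4 h are counted from that addition. The sample titles count these hours from actinomycin D. The cells were 32Dcl3, an established mouse myeloblast line that depends on IL-3 to grow and survive. The 5 arrays of an experiment came from 1 divided culture, so each group is 2 cultures of a single cell line. The 0 h array of each experiment carries no IL-3 level and served as the starting amount. Its title places it after actinomycin D and its description places it before the drug.

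Actinomycin D blocks RNA synthesis, so that the signal remaining at later times reports how fast a messenger RNA is lost. Many cytokine-responsive mRNAs carry AU-rich elements in their 3′ ends, which bind proteins that either hasten decay or hold it back, and signalling from a cytokine receptor can alter that balance. If IL-3 slowed decay by a constant amount throughout, the gap between high and low IL-3 on a log scale would keep widening at the same pace. A gap that opened early and then stayed level or closed would mean that loss in high IL-3 was as fast as, or faster than, loss in low IL-3 during the second interval.

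For every probe set the IL-3 effect was taken within each experiment as log2(high/low), with 16 added to each signal first, and the change was the effect at 4 h minus the effect at 2 h. A positive change means a gap that was wider at 4 h. The change was tested for the 11856 probe sets with a mean signal of at least 50 over the 10 arrays, which name 6792 genes. At that limit the probe set of Ercc5, with a mean signal of 50.05, lay just inside and had a change of 0.56, while that of Cbx1 at 49.97 lay just outside with 0.15. The median signal of an array lay between 48.8 and 70.6. Signals of the 3′ probe set over the 5′ probe set lay between 1.06 and 1.32 for Actb and between 0.844 and 0.905 for Gapdh over the 10 arrays. Myeloblast markers were present for 9 of 12 genes, led by the granule protease Ctsg at a mean signal of 3754, with Kit, Cd34 and Elane below the limit. None of 5 lymphoid markers reached it. Of the 6 macrophage markers 3 reached it (Adgre1, Cd68 and Csf1r), as did 3 of 7 mast cell and basophil markers and 2 of 5 erythroid and megakaryocyte markers, and no gene of these lists changed its IL-3 effect between the times by the test. The arrays measure bulk RNA and hold no count of surviving cells, so fewer surviving cells and less RNA per cell cannot be told apart from these signals. The authors state that the time points were chosen within a period of full viability.

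No probe set passed the test for a change of the IL-3 effect from 2 h to 4 h, in either direction (limma, Benjamini-Hochberg adjusted p under 0.05, 0% of 11856). At an unadjusted p under 0.05 there were 684 probe sets, or 5.77%, of which 358 were positive and 326 negative. A fit without the experiment as a block also called 0 and had 43 at that unadjusted level. The typical precision was coarse, with a median standard error of 0.21 and a median 95% interval of 0.46 on either side before any adjustment. A lone probe set at the median standard error would need a change of 1.48 to pass after adjustment over all 11856. For such a probe set the count of 0 does not bound smaller changes. Standard errors lay between 0.096 and 0.31 for most probe sets, so the change needed was smaller for some and larger for others. The median change over all probe sets was 0.00, with quartiles of -0.14 and 0.14.

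Taken singly, the experiments gave medians of 0.06 and -0.04, and 59.0% and 43.0% of probe sets above 0. The changes of the 2 experiments had a Pearson correlation of -0.06 and a Spearman correlation of -0.04 across probe sets, and 47.5% of probe sets had the same sign in both. The IL-3 effect averaged over the 2 times was shared to a greater degree, with a Pearson correlation of 0.37 between experiments. These are descriptions over probe sets, which are not independent and share the arrays of an experiment. The single-experiment median lay further from 0 for probe sets of middle brightness than for the brightest sixth, in which it was 0.02 in experiment 1 and -0.00 in experiment 2. Across the other sixths it ran from 0.04 to 0.10 in experiment 1 and from -0.09 to -0.02 in experiment 2.

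The transcripts on which the timing can best be read are those that high IL-3 held at a higher level over both times. The mean effect over 2 h and 4 h was above 0 by the test for 82 probe sets of 69 named genes (0.692% of those tested) and below 0 for 2 (0.0169%). The count of 82 depended on the processing and on single arrays. It was 12 without the variance trend, 22 without the filter on signal, 54 with a filter at 200 and 0 without the experiment as a block. It was 19 and 51 without the low IL-3 array at 4 h of experiment 1 and of experiment 2, 30 without that at 2 h of experiment 2, 40 and 32 without the high IL-3 array at 4 h of experiment 1 and of experiment 2, and 44 and 152 without that at 2 h. Choosing by this mean does not set the sign of the change, since the mean and the difference of the 2 effects are balanced against each other in the design, although both p-values use 1 estimate of the spread. Tested at each time alone, 7 probe sets were higher in high IL-3 at 2 h (0.059%) and 46 at 4 h (0.388%), 5 of them at both, with 0 and 2 (0% and 0.0169%) lower. That count does not show a wider gap at 4 h, because the test of the difference itself called none. Without the high IL-3 array at 2 h of experiment 2 the order was the other way, with 222 higher at 2 h and 59 at 4 h, and without the low IL-3 array at 4 h of experiment 1 the counts were 2 and 3.

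Over the 82 probe sets the median IL-3 effect was 0.55 at 2 h and 0.66 at 4 h, so 83.3% of the median gap at 4 h was there at 2 h. The median change was 0.13, with quartiles of -0.05 and 0.27. It was above 0 for 58 of 82 (70.7%), against 50.3% of all probe sets tested. Experiment 1 gave a median change of 0.25, with 61 above 0, and experiment 2 gave 0.04, with 45 above 0. In both experiments at once the gap was wider at 4 h for 36 of the 82 (43.9%, against 24.8% of all tested) and narrower for 12 (14.6%, against 22.8%). For the remaining 34 the experiments disagreed, 25 of them being wider in experiment 1 alone. Across the 82 the changes of the 2 experiments had a Pearson correlation of 0.12 and a Spearman correlation of 0.13. Transcripts are arranged below by these same changes, and the arrangement was not tested. None of the 82 passed the test for a change, the smallest adjusted p being 0.326. With the low IL-3 array at 4 h of experiment 1 left out the median was 0.02 and the count above 0 was 43, and with the low IL-3 array at 2 h of experiment 1 left out these were 0.05 and 47.

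**Figure D1:**
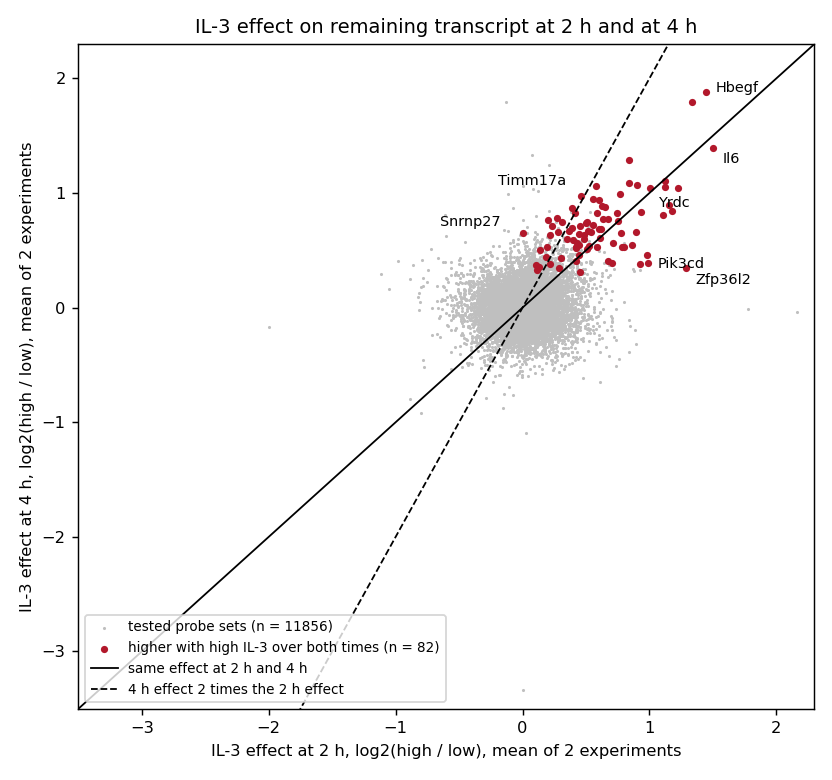
The IL-3 effect at 2 h (x axis) and at 4 h (y axis), as log2(high/low) averaged over the 2 experiments, for the 11856 probe sets tested (grey) and the 82 that were higher in high IL-3 over both times (red). Red points above the solid line, 58 of 82, had a wider gap at 4 h, and the dashed line marks a gap 2 times as wide at 4 h as at 2 h.

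The gap can also be read as loss in each interval. Over the first 2 h the median log2 signal of the 82 probe sets changed by -0.28 in high IL-3 and by -0.84 in low IL-3. Between 2 h and 4 h it changed by -0.47 in high IL-3 and by -0.61 in low IL-3. As a share of the 0 h signal, the median at 2 h was 82.6% with high and 53.6% with low IL-3, and the medians at 4 h were 55.0% and 31.1%. The gain of the gap in the second interval minus that in the first was negative for 66 of the 82, with a median of -0.40. Choosing probe sets by the mean effect favours a negative sign for that quantity, since noise that raises the 2 h effect enters it with a minus sign. No probe set of the 11856 was called for it in either direction (0%), with 683 at an unadjusted p under 0.05.

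The 82 probe sets were also described by how much of their signal was lost. They were divided at the median of their loss from 0 h, averaged over the 8 arrays with IL-3, a quantity that is also balanced against the change in this design. The division was made after the values were seen and was not tested. Among those with less loss, a median of 0.48 log2 units, the gap was wider at 4 h for 38 of 41 probe sets, with a median change of 0.23 (0.31 in experiment 1 and 0.12 in experiment 2). Among those with more loss, a median of 1.29 log2 units, it was wider for 20 of 41, with a median change of -0.01 (0.17 and -0.20), so these had no common direction. With an array left out the second median ran from -0.15 to 0.19 and the first from 0.14 to 0.30. All 12 probe sets that narrowed in both experiments were among those with more loss, as were 11 of the 36 that widened in both. These counts are of probe sets and not independent, since some genes had several, such as Cklf with less loss and Pik3cd with more. Loss and change had a Pearson correlation of -0.53 over the 82. The signal in low IL-3 at 4 h had a median of 112 for the probe sets with more loss and 203 for the others, and adding 1 in place of 16 to each signal gave median changes of 0.05 and 0.26. Over all 11856 probe sets divided likewise, the order was the other way, with a median change of 0.03 for more loss and -0.03 for less.

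**Figure D2:**
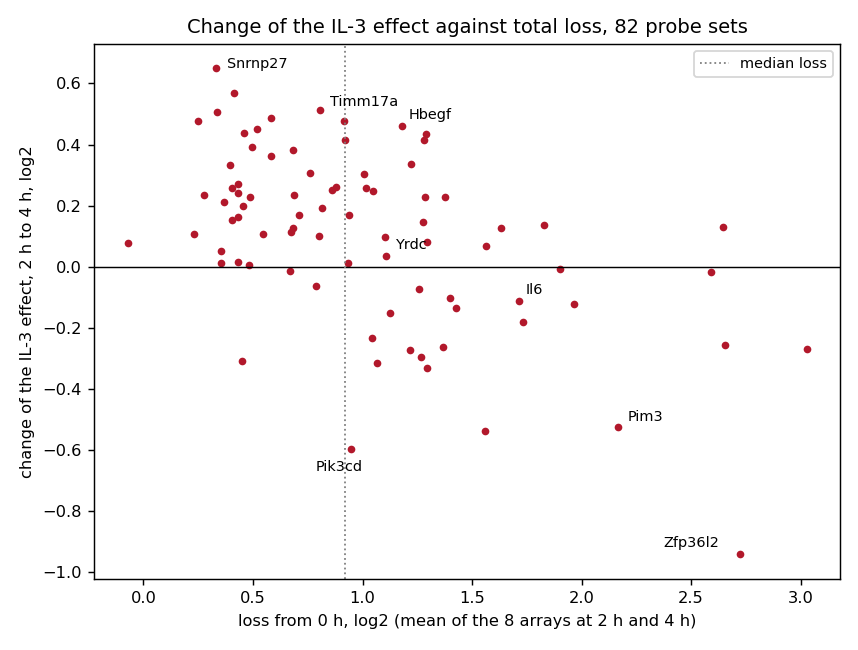
Change of the IL-3 effect from 2 h to 4 h (y axis, log2) against the mean loss from 0 h over the 8 arrays with IL-3 (x axis, log2), 1 point for each of the 82 probe sets. To the left of the dotted median 38 of 41 points lie above 0, and to the right 20 of 41 do.

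Among transcripts whose gap was open at 2 h and smaller at 4 h, Zfp36l2 stood lowest. It encodes a zinc finger protein of the tristetraprolin family, which binds AU-rich elements and promotes decay. Its signals at 0 h were 3455 in experiment 1 and 2940 in experiment 2. The high IL-3 arrays gave 1588 and 783 after 2 h, then 382 and 323 after 4 h. The low IL-3 arrays gave 459 and 435 after 2 h, then 286 and 260 after 4 h. High IL-3 was above low IL-3 on every pair of arrays, and at 4 h each experiment held between 8.29% and 11.1% of the starting signal in either medium. The IL-3 effect was 1.29 at 2 h and 0.35 at 4 h, a change of -0.94 (SE 0.25, 95% interval -1.47 to -0.41), with -1.36 in experiment 1 and -0.53 in experiment 2. Its adjusted p by limma was 0.761. Over 20 alternatives it ran from 0.00183 to 1, and it was under the threshold only with the high IL-3 array at 2 h of experiment 2 left out.

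Pik3cd, the catalytic p110δ subunit of phosphoinositide 3-kinase, was measured by 3 probe sets that all belonged to the 82. For the dimmest of them the signals in high IL-3 were 215 and 244 at 2 h and 93.8 and 147 at 4 h, from 177 and 377 at 0 h. In experiment 1 the 2 h signal thus lay above that at 0 h, which is no loss of RNA. Low IL-3 gave 83.2 and 138, then 71.3 and 103. The groups did not overlap at 2 h and did at 4 h, where the low signal of experiment 2 lay above the high signal of experiment 1. Within each experiment high IL-3 was still above low IL-3 at 4 h, by 0.33 and 0.45 log2 units. The change was -0.60 (SE 0.26, adjusted p = 0.857 by limma). The other probe sets gave -0.29 and -0.10, each with opposite signs in the 2 experiments, so the narrowing of the gap was not shared by all of them.

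Pim3, a serine/threonine kinase that cytokines induce, had signals in high IL-3 of 151 and 83.5 at 2 h and 88.5 and 49.1 at 4 h. Low IL-3 gave 53.9 and 44.6, then 54.0 and 35.4. Most of the loss in low IL-3 had taken place by 2 h, and the change was -0.52 (SE 0.27, adjusted p = 0.888 by limma). The low IL-3 signals lay near the filter limit of 50, and whether they could be read much lower was not tested. A dimmer probe set of the gene, not among the 82, gave 0.18. Mllt11 (-0.54) and Gadd45a (-0.33), a stress-induced gene of growth arrest, were also negative in both experiments. For Mllt11 the low IL-3 signals were 47.4 and 16.9 at 2 h and 60.6 and 28.0 at 4 h, so they were no lower at 4 h and partly near the added 16. Pdcd2l (-0.27) was negative in both experiments. Pimreg, a regulator of mitosis (-0.32), had 0.00 in experiment 1, and St3gal4, a sialyltransferase (-0.31), had opposite signs in the 2 experiments.

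Other transcripts had a wide gap at 2 h that was nearly the same at 4 h by the fitted values. Il6, the cytokine interleukin 6, started from signals of 787 and 994. High IL-3 gave 400 and 493 after 2 h, then 350 and 530 after 4 h. Low IL-3 gave 127 and 169, then 122 and 194. Nearly all loss in both media lay before 2 h, at which 50.8% and 49.6% remained in high and 16.1% and 17.0% in low IL-3. The IL-3 effect was 1.5 at 2 h and 1.39 at 4 h, and the change was -0.11 (SE 0.20, 95% interval -0.53 to 0.31).

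Yrdc, an enzyme of tRNA modification, kept its gap while it was being lost in both media. Its signals in high IL-3 were 345 and 537 at 2 h and 186 and 303 at 4 h, and in low IL-3 156 and 271 and then 79.5 and 144. The effect was 1.00 at 2 h and 1.04 at 4 h, a change of 0.04 (95% interval -0.52 to 0.59). Xiap, an inhibitor of caspases, had effects of 1.12 and 1.05 by the probe set among the 82 and a change of -0.07 (95% interval -0.64 to 0.49), with opposite signs in the 2 experiments. Its other 2 probe sets, which were not among the 82, gave 0.35 and 0.40. These intervals are wide, so a level gap was not established for any of these genes.

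**Figure D3:**
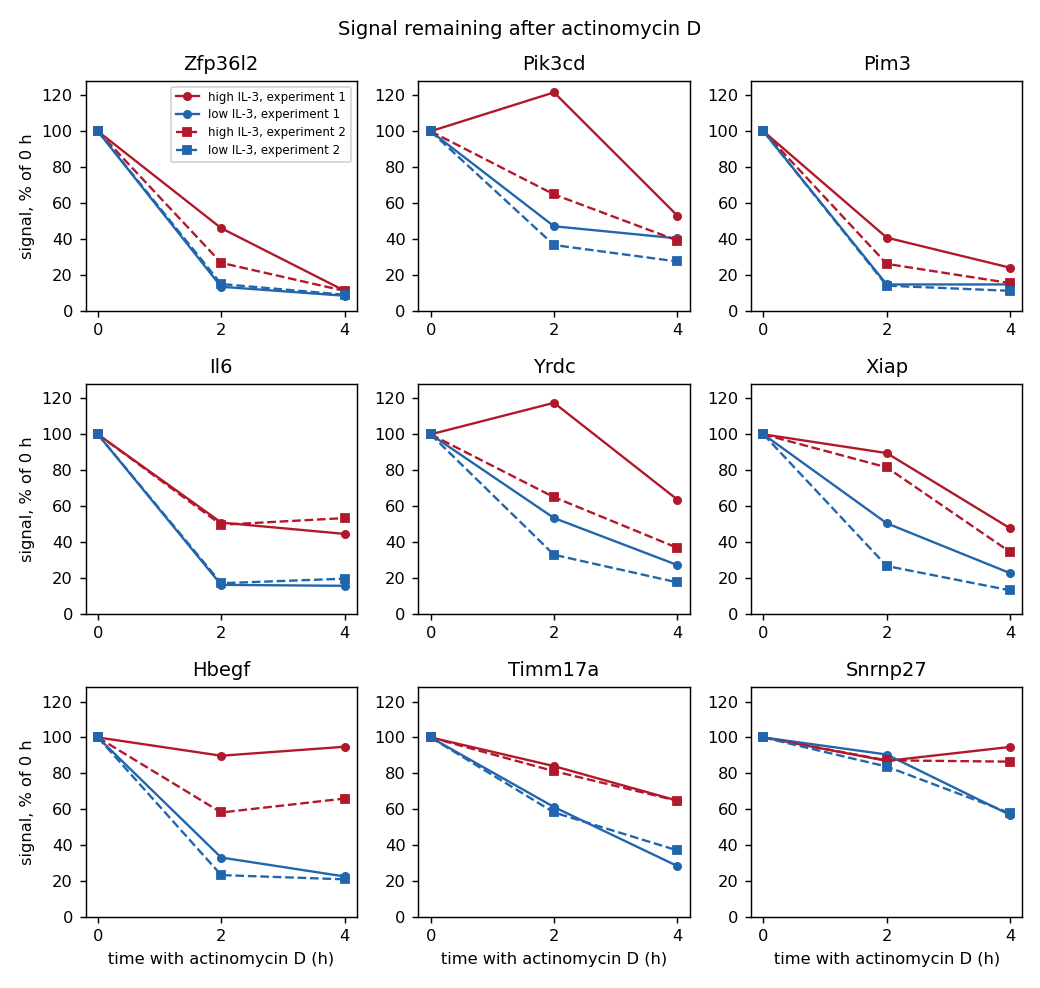
Signal as a percentage of the 0 h signal of the same experiment (y axis) against the hours of the sample titles, which count from actinomycin D (x axis). For each of 9 transcripts red marks high and blue marks low IL-3, solid lines experiment 1 and dashed lines experiment 2. Zfp36l2, Pik3cd and Pim3 (top) had a smaller gap at 4 h than at 2 h on the log2 scale, Il6, Yrdc and Xiap (middle) a similar one, and Hbegf, Timm17a and Snrnp27 (bottom) a larger one, and none of the 9 changes passed the test. Pik3cd is shown by its dimmest probe set, and its other probe sets had opposite signs of the change in the 2 experiments.

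At the other end of the range of changes, the gap was larger at 4 h. Snrnp27, a protein of the spliceosome's tri-snRNP, had the most positive change among the 82. Its signals in high IL-3 were 1473 and 1246 at 2 h and 1605 and 1235 at 4 h. Low IL-3 gave 1534 and 1196, then 962 and 826. The groups overlapped at 2 h and were apart at 4 h, where low IL-3 held 56.8% and 57.8% of the starting signal and high IL-3 94.7% and 86.5%. The effect was 0.00 at 2 h and 0.65 at 4 h, a change of 0.65 (SE 0.13, 95% interval 0.37 to 0.93, adjusted p = 0.326 by limma). The second probe set of the gene gave 0.33. Over the 20 alternatives the adjusted p of the first ran from 0.035, without the high IL-3 array at 2 h of experiment 2, to 1.

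Timm17a, a subunit of the translocase of the inner mitochondrial membrane, had signals in high IL-3 of 1129 and 1156 at 2 h and 870 and 921 at 4 h, and in low IL-3 of 823 and 829 and then 380 and 527. The groups were apart at both times. The change was 0.51 (SE 0.17, adjusted p = 0.857 by limma), with 0.71 in experiment 1 and 0.31 in experiment 2. Hbegf, a ligand of the EGF receptor, had the widest gap of the 82 at 4 h. Its signals in high IL-3 were 840 and 674 at 2 h and 886 and 764 at 4 h, while those in low IL-3 were 309 and 269 and then 210 and 242 (the brighter of 2 probe sets). High IL-3 thus showed no loss after 2 h. The change was 0.46 (95% interval -0.00 to 0.92), and 0.43 by the other probe set, positive in both experiments for each.

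Cklf, a chemokine-like factor, was measured by 6 probe sets, 3 of them among the 82. Their changes were 0.44, 0.48 and 0.57, positive in both experiments. Of the others, 2 gave 0.45 and 0.64, and the dimmest, with a mean signal of 63.1, gave -0.08. Ncdn (0.51) and the secreted factor Fam3c (0.48) were positive in both experiments, whereas Celf4, an RNA-binding protein, and Il4, the cytokine interleukin 4, had 0.49 and 0.45 from experiment 1 alone. For Il4 the changes of the 2 experiments were 0.97 and -0.07. At an unadjusted p under 0.05, 13 of the 82 were positive, from Cct6a, Cklf, Eif4a1, Fam3c, Ncdn, Pbk, Snrnp27, Spc25, Timm17a and Vdac2, and 2 were negative, from Pik3cd and Zfp36l2. Of all 11856 probe sets tested, 358 were positive and 326 negative at that level. The 82 were called with the same estimate of the spread, so a spread estimated too small favours passing both tests. Some of the 13 were probe sets of the same gene. Pbk and Spc25 are genes of mitosis, Eif4a1 is the RNA helicase of translation initiation, and Cct6a is a subunit of the cytosolic chaperonin.

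**Figure D4:**
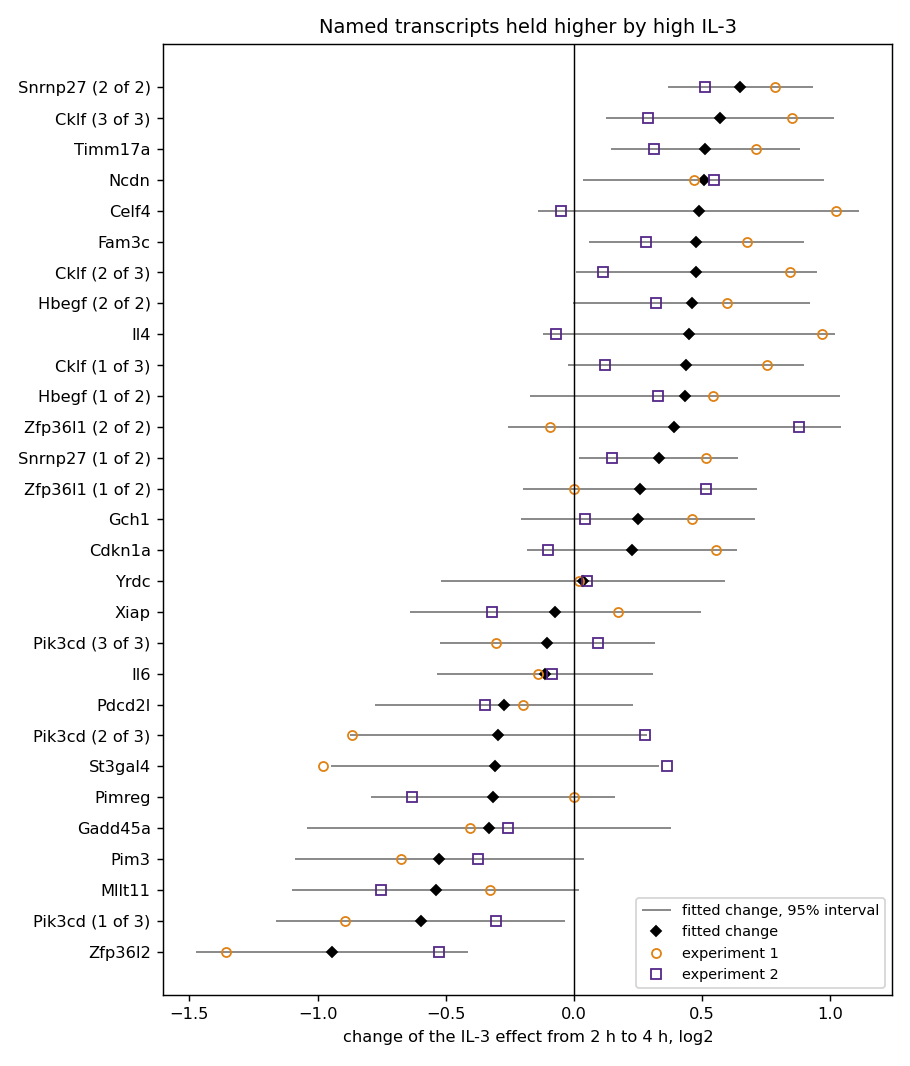
Change of the IL-3 effect from 2 h to 4 h (x axis, log2) for the named transcripts among the 82 probe sets, with the fitted value (diamond), its 95% interval (line) and the value of each experiment (circle and square). Where a gene has several probe sets they are numbered in order of their change, and values run from -0.94 for Zfp36l2 to 0.65 for Snrnp27.

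The transcripts shown on Northern blots as examples of control by IL-3 did not share a direction. They were chosen on these samples, apart from Cdkn1a, and are no independent evidence. Taking the brightest probe set of each gene, 4 of the 8 had a wider gap at 4 h and 4 a narrower one. The median effect was 0.64 at 2 h and 0.67 at 4 h, and the median change was -0.03, with none called. Cdkn1a, which encodes the cell cycle inhibitor p21, had 2 h signals of 2164 and 1427 with high IL-3 against 1522 and 811 with low. At 4 h the signals were 1451 and 885 against 689 and 537. Its change was 0.23 (95% interval -0.18 to 0.64), with 0.55 in experiment 1 and -0.10 in experiment 2. Zfp36l1, a close relative of Zfp36l2, had changes of 0.26 and 0.39 by its probe sets, opposite in sign to that of Zfp36l2, with the second at signals as low as 30.9. The haematopoietic transcription factor Myb had 0.06 by its brightest probe set. Pim1, a kinase related to Pim3, had 0.05 and the transcriptional coregulator Cited2 -0.25. Outside these 8 genes, Gch1, the first enzyme of tetrahydrobiopterin synthesis, had 0.25, and the control gene Gapdh had 0.01, -0.02 and -0.06 by its 3 probe sets.

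The 2 probe sets that were lower in high IL-3 over both times, named after their values were seen, were those of Thrap3 and Norad. Their changes were -0.12 and -0.19, and neither passed the test, with adjusted p-values by limma of 0.99 and 0.936.

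Over all 11856 probe sets the 10 genes with the smallest p for a positive change and the same sign in both experiments were Osbpl2, Hnrnpab, Gaa, Snrnp27, Fam160b1, Tmem33, Pik3c3, Slc35b2, Myo1g and Hspb1, with adjusted p-values by limma between 0.0508 and 0.55. In 9 of the 10, all but Snrnp27, high IL-3 lay below low IL-3 at 2 h and above it at 4 h in both experiments. That order held for 5.51% of all probe sets. Choosing genes by the change itself favours it, so the order is no separate result. Osbpl2, an oxysterol-binding protein, was nearest to the threshold. Its signals in high IL-3 were 378 and 305 at 2 h and 864 and 503 at 4 h, from 954 and 613 at 0 h, and in low IL-3 they were 580 and 478 and then 414 and 332. The change was 1.41 (SE 0.20), with 1.63 in experiment 1 and 1.20 in experiment 2. Its adjusted p was under the threshold in 9 of 20 alternatives and ran from 0.00471 to 1 over them. Between 2 h and 4 h its log2 signal in high IL-3 went up by 0.93, which is no loss of RNA. The same held for Fam160b1 (1.00), Gaa (0.78) and Hspb1 (0.69). For the 5 of these genes with further probe sets, 3 of 12 of those were positive. Gaa, the lysosomal acid alpha-glucosidase, had 1.24 by one probe set and -0.21 by the other.

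The 10 genes with the smallest p for a negative change were Set, Csrp1, Abcd4, Atp5j2, Josd2, Zfp36l2, Acaa2, Hexdc, Srfbp1 and Rsrp1, with adjusted p-values by limma between 0.55 and 0.788. In 9 of the 10, all but Zfp36l2, high IL-3 lay above low IL-3 at 2 h and below it at 4 h in both experiments. This order was found in 6.24% of all probe sets and is likewise favoured by choosing on the change. Set, an inhibitor of protein phosphatase 2A, had signals in high IL-3 of 3291 and 3330 at 2 h and 1975 and 2784 at 4 h, and in low IL-3 of 2237 and 3201 and then 3094 and 3071. Its change was -0.70 by this probe set and 0.18 and 0.04 by its other 2. For the 5 genes of this group with further probe sets, 5 of 8 of those were negative.

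The count of calls depended on the high IL-3 arrays at 2 h. Leaving out that array of experiment 1 gave 9 positive and 4 negative calls, and leaving out that of experiment 2 gave 13 and 134. Only 2 probe sets were called both times, those of Osbpl2 and Hnrnpab, each with the same sign. Of the 147 called without the array of experiment 2, 33 had the opposite sign without the array of experiment 1.

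No member of the gene lists was called for a change, and the lists are described by counts and medians without a test. Each gene was read by its brightest probe set, and 24 lists had at least 5 genes tested. Medians of the change ran from -0.08 for cytokine receptors to 0.11 for cholesterol synthesis, against 0.02 over all 6792 genes, of which 54.0% were above 0. The 2 experiments gave list medians of the same sign in 10 of the 24 and of opposite sign in 14. Experiment 1 gave 19 medians above 0 and experiment 2 gave 7, as for all genes, whose medians were 0.10 and -0.05.

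In the receptor and signalling lists, 6 of 16 cytokine receptors were above 0. Ifngr1, a chain of the interferon gamma receptor, and Il4ra, of the interleukin 4 receptor, each had -0.87, and the G-CSF receptor Csf3r had -0.52, and all 3 were negative in both experiments. The IL-3 receptor chains Il3ra (-0.38) and Csf2rb (0.19) differed in sign. Of the JAK/STAT and SOCS genes 15 of 26 were above 0, Socs1 having 0.69, Socs2 0.41 and Socs3 -0.33. Of the MEK/ERK feedback genes 9 of 15 were. In both experiments at once 6 of them (40%) were positive and 1 (6.67%) negative, against 26.6% and 21.6% of all genes. Ier3 had 0.46 and the Ras pathway inhibitor Spry2 -0.60. Immediate early transcripts, which are lost fast, were above 0 for 10 of 22, with Ier2 at -0.97. No member of these lists passed the test.

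Among lists of RNA and protein production, splicing and RNA processing had 42 of 79 above 0, ribosome biogenesis 34 of 67, cytoplasmic ribosomal proteins 23 of 42, mitochondrial ribosomal proteins 38 of 75, and tRNA synthetases and modification 25 of 45. Proteasome genes had 28 of 47. Genes that bind AU-rich elements had 11 of 20 and mRNA decay factors 20 of 38, with 0.49 for the exonuclease Xrn1 and -0.68 for the helicase Upf1, which acts in nonsense-mediated decay. Genes of G1/S had 29 of 57 and of G2/M 32 of 56. The kinase Cdk1, which drives entry into mitosis, had 0.25 and Ccna2, which encodes cyclin A2, had -0.27. In the latter 2 lists, too, none was called.

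In the metabolic lists, respiratory chain genes were above 0 for 32 of 84. In both experiments at once 28 of them (33.3%) were negative and 8 (9.52%) positive, against 21.6% and 26.6% of all genes. The values were small, the median being -0.02, and of the single genes Atp5e had -0.44 and Ndufa4 -0.54. Cholesterol synthesis genes had 19 of 26 above 0, with list medians of 0.10 in experiment 1 and 0.05 in experiment 2. In both experiments at once 11 of them (42.3%) were positive and 1 (3.85%) negative, against 26.6% and 21.6% of all genes. Cyp51, lanosterol demethylase, had 0.42 and Srebf2, the transcription factor of the pathway, 0.34. Glycolysis and control genes had 11 of 23 above 0. Apoptosis regulators had 17 of 26 above 0, with list medians of 0.17 and 0.09. In both experiments at once 10 of them (38.5%) were positive and 0 negative, beside the same shares of all genes. Traf2, an adaptor of TNF receptors, had 0.78 and Bcl2 -0.36. The p53 targets had 10 of 21 above 0, ATF4 targets 10 of 21, C2H2 zinc finger genes 43 of 94, granule genes 9 of 18, and cytokines and growth factors 7 of 14.

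**Figure D5:**
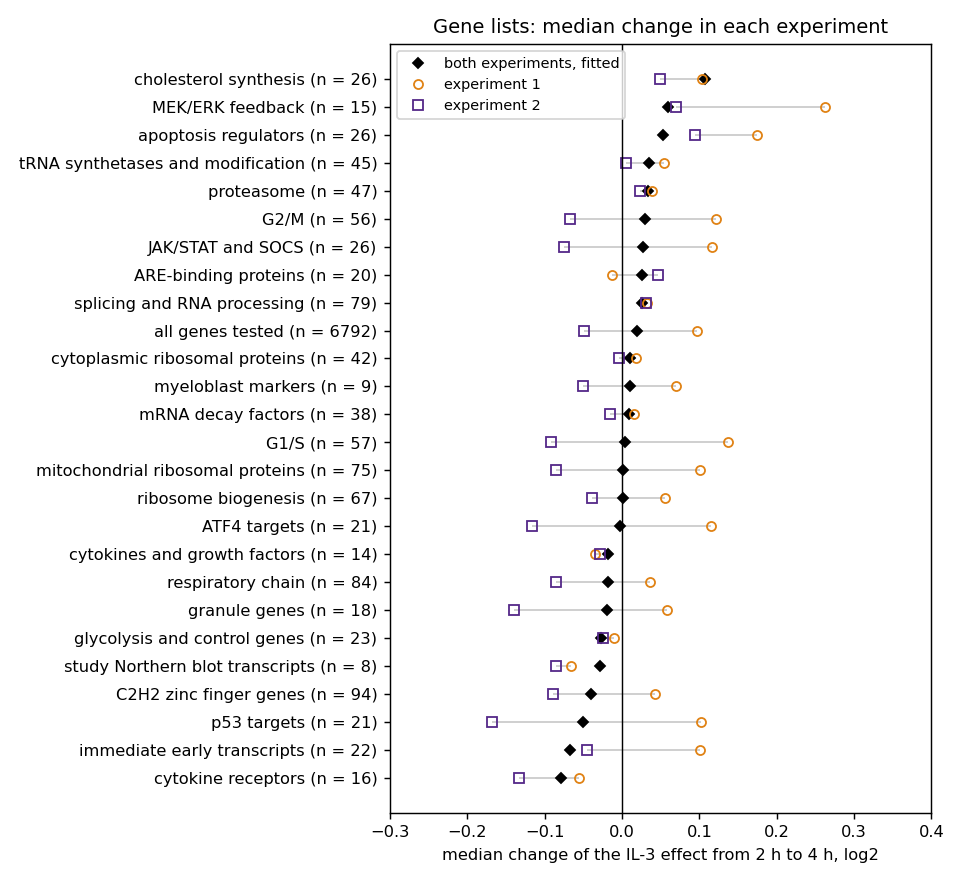
Median change of the IL-3 effect from 2 h to 4 h (x axis, log2) over the genes of each list with at least 5 genes tested, and over all genes, from both experiments (diamond) and from each (circle and square). The fitted medians lie between -0.08 and 0.11, and in 14 of the 24 functional lists the 2 experiments lie on opposite sides of 0.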

How the data were processed

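RNA of 32Dcl3 cells was hybridised to Affymetrix mouse 430A 2.0 arrays. The authors normalized the 10 arrays together and computed model-based expression in dChip at its default settings. The deposited values are intensity on a linear scale for 22690 probe sets, not centred and not ratios. Normalizing the arrays together can scale out part of an overall difference in mRNA amount between them. The arrays still differed in level. In experiment 1 the 75th percentile of signal was 500 at 0 h, and 349 with high and 331 with low IL-3 at 4 h. In experiment 2 these were 399, 315 and 325. Gene names come from the array's annotation, brought up to date with the NCBI RefSeq gene table (GRCm38.p6). A probe set listed with several genes was left unnamed.

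Values were taken as log2(intensity + 16), and probe sets with a mean intensity under 50 were left out. All 10 arrays were fitted in limma 3.58.1 (R 4.3.3) with 5 groups and a term for the experiment (the block). The eBayes step let the spread depend on intensity. There were 4 residual degrees of freedom, and a Benjamini-Hochberg threshold of 0.05 over all probe sets. The block follows the design, since an experiment was 1 divided culture. Deviations from the group mean correlated between arrays sharing an experiment, at 0.762 to 0.887 over 10 pairs of groups. The block takes out the overall difference between the 2 cultures of a group. P-values therefore measure how far differences between groups varied between the 2 experiments, with the estimate of that spread shared in part between probe sets. The number of arrays limits the precision.

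Named genes were the 10 with the smallest p in each direction, the 8 most positive and 8 most negative among those called for their mean effect, 15 genes from the study or earlier analysis, and up to 3 of each list per direction. The members, lists and named genes were chosen with earlier results of these data known, and scripts were checked on simulated data. Alternatives covered the pseudocount, the filter, scaling, the block, the trend and each array left out.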

Additional observations from a re-analysis of the deposited data

How the results depend on the processing

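The count of probe sets called for a change of the IL-3 effect stayed at 0 in both directions with a pseudocount of 1 or 64, no filter on signal, 75th percentile scaling, quantile normalization or no variance trend. It was 2 above 0 with Gapdh scaling, 1 above 0 with a filter at a mean signal of 200, and 1 above 0 with only the 8 arrays with an IL-3 level, the probe set of Osbpl2 being called under each. With no replicate block it was 0, with 43 at an unadjusted p under 0.05, and the mean effect over both times and the effect at each time called 0, so the 2 experiments have to be treated as paired for the 82 probe sets to be called. With 1 array left out at a time, the counts ran from 0 to 13 above 0 and from 0 to 134 below 0 for the change, and from 0 to 14 and from 0 to 211 for the second interval against the first. The highest were all without the high IL-3 array at 2 h of experiment 2. Without that of experiment 1 the change gave 9 and 4 and the second interval against the first 10 and 4, and without the high IL-3 array at 4 h of experiment 1 they gave 4 and 0, and 3 and 0. The cause was not tested.

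The counts called for the IL-3 effect itself, recomputed under the same alternatives as an addition made after the data were seen, also moved. For the mean effect over both times they were 65 above 0 and 1 below 0 with 75th percentile scaling, 54 and 2 with a filter at 200, 22 and 1 with no filter and 12 and 1 with no variance trend, and 19 to 152 and 2 to 7 with 1 array left out. For the effect at 2 h they were 2 and 0 with 75th percentile scaling, quantile normalization or no filter, 16 and 2 with Gapdh scaling, 16 and 3 with only the 8 arrays and 1 and 0 with no variance trend, and 2 to 222 and 0 to 14 with 1 array left out. For the effect at 4 h they were 20 and 0 with 75th percentile scaling, 50 and 1 with Gapdh scaling, 28 and 1 with quantile normalization, 16 and 1 with a pseudocount of 64, 7 and 0 with no filter and 3 and 0 with no variance trend, and 3 to 61 and 0 to 7 with 1 array left out. The cause was not tested.

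Over the 82 probe sets, kept as they were, the median change ran from 0.07 with a pseudocount of 64 to 0.17 with a pseudocount of 1, and from 0.02 to 0.25 with an array or an experiment left out, with 43 to 63 above 0. For the 41 with less loss it ran from 0.14 to 0.30 with an array left out, and for the 41 with more loss from -0.15 to 0.19. Of 51 named probe sets 36 kept their sign with each array or experiment left out. The others ran from -0.87 to 0.28 and from -0.33 to 0.12 (Pik3cd), -0.98 to 0.36 (St3gal4), -0.34 to 0.19 (Xiap), -0.10 to 0.18 (Yrdc), -0.021 to 0.54 and from -0.092 to 0.88 (Zfp36l1), -0.099 to 0.55 (Cdkn1a), -0.049 to 1.02 (Celf4), -0.068 to 0.97 (Il4), -0.63 to 0.00049 (Pimreg), -0.074 to 0.19 (Myb), -0.13 to 0.23 (Pim1), -0.55 to 0.058 (Cited2) and -0.13 to 0.0017 (Gapdh). Xiap was 0.0088 with a pseudocount of 1, and Yrdc was -0.055 with a pseudocount of 64. With 1 array left out the lone array of that group is assumed to vary as the others do. Dim signals in low IL-3 at 4 h lie near the added 16, which limits how wide a gap can be read there.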
